A study of Rattus norvegicus with 145 samples.

Results

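The 10 genes described here encode machinery by which cells detect DNA and RNA in the cytosol. They are Tmem173, Zbp1, Trex1, Ddx58, Ifih1, Dhx58, Mavs, Tbk1, Irf3 and Irf7, out of 17337 genes listed per table. They were chosen by symbol and not by a cut on their values, though earlier results of these data were known. All 10 passed the filter on low counts in every data set. Liver RNA (left lobe) came from Wistar rats given acetamide, a contaminant of food, by daily gavage in water, or water alone, with 5 rats in each of 29 groups. Experiment A used male rats of strain Hsd:WI, 9 to 10 weeks old, at 0, 30, 100, 300 and 1000 mg/kg/day (mkd) for 7 days, sampled on day 8. Experiment B used males and females of strain Crl:WI, 8 to 10 weeks old, at 0, 300, 500, 750, 1000 and 1500 mkd for 7 days (day 8) or 28 days (day 29). A label assigns the day 29 male controls to experiment A, although strain and titles match experiment B, and they were used in experiment B. Experiment, strain and breeder differ together, so that their parts in any difference between experiments A and B cannot be told apart.

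RNA in the cytosol is read by RIG-I (the product of Ddx58) and MDA5 (Ifih1), which act through the mitochondrial adapter MAVS. LGP2 (Dhx58) is their regulator. DNA in the cytosol, which can leak from micronuclei, is read by cGAS (not analysed here) and passed on by the adapter STING (Tmem173), while the exonuclease TREX1 degrades such DNA. Both routes use the kinase TBK1, which activates the transcription factors IRF3 and IRF7 and so the genes of type I interferons. ZBP1 binds nucleic acids in the Z form, and Zbp1, Irf7, Ddx58, Ifih1 and Dhx58 are themselves known to be induced by interferon, so that sensing and response form a loop.

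Promoter sequences (RefSeq, build GRCr8, 250 bases before to 50 bases after the gene start) were at hand for 7 of the 10 genes and are shown where the response to acetamide and the interferon motif can be set side by side. Zbp1, Ddx58 and Dhx58 had no entry. The core of the interferon-stimulated response element was searched on both strands as GAAANNGAAA, which occurs in 3.92% of 33469 promoters of this length. It was found in 2 of the 7, Irf7 (chr1:205799974-205800273, minus strand) and Ifih1 (chr3:67683919-67684218, minus strand), and is set in capitals, in Irf7 as the reverse complement. It begins 69 bases before the start of Irf7 and 59 bases before that of Ifih1. The promoter of Mavs (chr3:138904562-138904861, plus strand), the adapter whose level fell with dose in females, has no match, and neither do those of Tmem173, Trex1, Tbk1 and Irf3, which are not printed.
Irf7: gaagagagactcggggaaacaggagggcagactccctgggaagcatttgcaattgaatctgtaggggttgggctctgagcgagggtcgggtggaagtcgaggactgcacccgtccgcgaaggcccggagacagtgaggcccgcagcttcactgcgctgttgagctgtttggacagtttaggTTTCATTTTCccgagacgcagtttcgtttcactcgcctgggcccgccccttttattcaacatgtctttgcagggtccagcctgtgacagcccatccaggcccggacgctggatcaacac
Ifih1: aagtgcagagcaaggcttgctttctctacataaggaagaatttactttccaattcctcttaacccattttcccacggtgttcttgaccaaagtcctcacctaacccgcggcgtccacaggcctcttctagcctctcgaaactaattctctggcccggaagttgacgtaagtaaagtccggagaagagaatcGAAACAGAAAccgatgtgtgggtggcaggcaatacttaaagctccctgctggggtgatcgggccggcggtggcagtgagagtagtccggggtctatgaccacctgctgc
Mavs: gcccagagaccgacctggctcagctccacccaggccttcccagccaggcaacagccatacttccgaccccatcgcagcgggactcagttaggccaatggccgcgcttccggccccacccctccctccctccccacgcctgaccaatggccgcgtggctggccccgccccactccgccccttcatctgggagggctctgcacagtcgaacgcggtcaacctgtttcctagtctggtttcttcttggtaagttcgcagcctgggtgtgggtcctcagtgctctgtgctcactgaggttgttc
A match of letters is a description of the sequence and not evidence that a factor binds there, and genes with and without a match rose (Irf7, Ifih1, Tmem173 and Trex1 in experiment A) or fell (Ifih1 in males and Mavs in females, on day 29).

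The median rat had 28262376 reads on genes (lowest 15449716, highest 39986531), so that counting error is small for genes such as Irf7 (278 to 73531 reads per rat) and larger for Tmem173 (11 to 196) and Zbp1 (8 to 2874). Levels are given as CPM, the read count scaled to a common library size, after TMM scaling within each data set, which corrects library totals for composition. They are not divided by gene length, and levels of different genes were therefore not compared. Where all rats of a group are said to lie above or below every control, the share of all genes that did so was not computed. The 9 hepatocyte markers summed to between 75790 and 371700 CPM, with the lowest value at 1000 mkd in experiment A. In 4 libraries the median correlation with the other rats of the data set was under 0.95, namely replicates 2 and 4 at 1000 mkd in experiment A (0.907 and 0.937), replicate 3 of the males at 1500 mkd on day 29 (0.930) and replicate 2 of the females at 1500 mkd on day 29 (0.947). Counts at the highest dose in these 3 data sets are also given without them. As these are bulk samples, a change in the number of cells of a type and a change in RNA per cell cannot be told apart.

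Most of the genes were called in males of experiment A at 1000 mkd, where 7 of the 10 genes were higher than in controls by at least 1.5-fold at an adjusted p of at most 0.05, and 0 were lower. Over all 11323 genes tested, 21.4% were called by these criteria, in either direction. Irf7 and Zbp1 rose 17.1-fold and 16.7-fold, the RNA sensor genes Dhx58, Ddx58 and Ifih1 rose 3.34-fold, 2.24-fold and 2.15-fold, and Trex1 and Tmem173 rose 2.03-fold and 2.00-fold. Mavs, Tbk1 and Irf3 were not called. The median log2 fold change of the 10 genes was 1.06, beside 0.00093 over all genes tested. Without the libraries of replicates 2 and 4 of this dose group, 3 genes were called, namely Irf7, Zbp1 and Tmem173, beside 7.48% of all genes. The log2 fold changes of Irf7 and Zbp1 were then 3.04 (adjusted p = 0.0388) and 2.22 (adjusted p = 0.0422), against 4.09 and 4.06 with all rats.

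**Figure D1:**
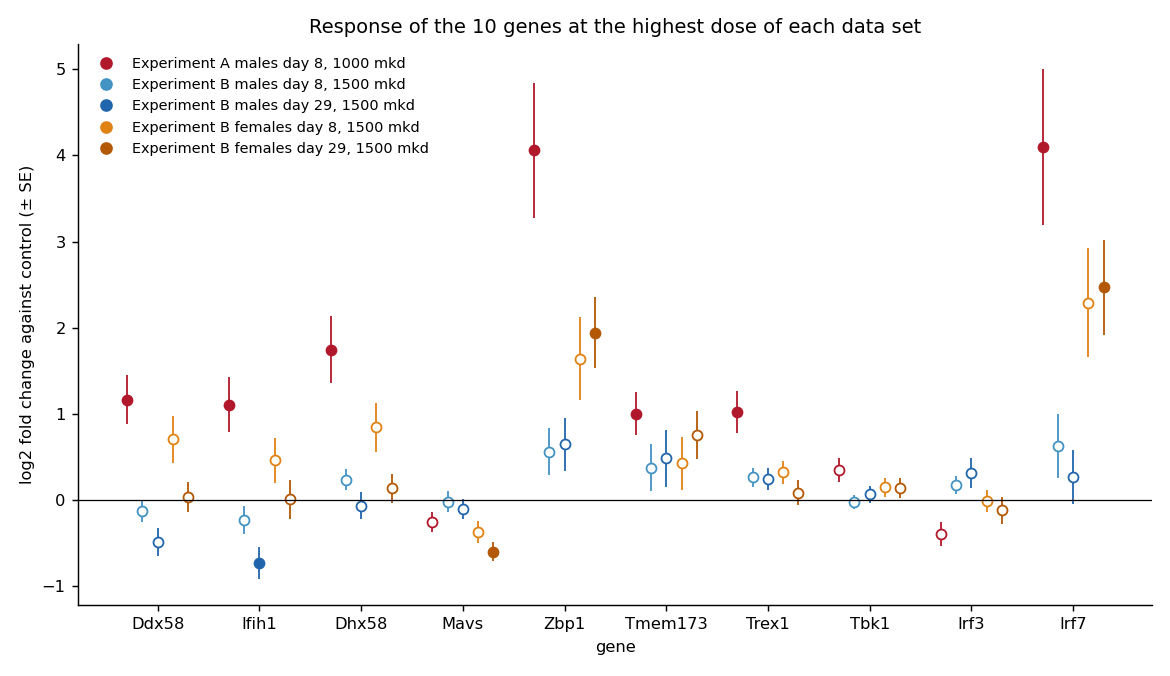
Log2 fold change (edgeR, ± SE) of each of the 10 genes at the highest dose against the control of the same data set, with 5 rats per group. Filled points passed the 1.5-fold and adjusted p criteria, and open points did not. Irf7 and Zbp1 stand at about 4.09 and 4.06 in experiment A, and Mavs (in females, day 29) and Ifih1 (in males, day 29) are the called points below 0.

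Irf7, the factor that amplifies interferon production, was at 9.75, 137, 17.4, 32.8 and 18.5 CPM in the 5 control rats of experiment A and at 127, 1292, 248, 1346 and 665 CPM at 1000 mkd. In this group 4 of 5 rats lay above every control, and a control rat at 137 CPM lay above the lowest treated rat. The log2 fold change was 4.09 ± 0.91 (SE, adjusted p = 0.00205). Zbp1 was at 0.807, 2.58, 0.605, 0.692 and 0.755 CPM in the controls and at 1.93, 50.5, 4.52, 24.9 and 8.48 CPM at 1000 mkd, again with the highest control above the lowest treated rat (log2 fold change 4.06 ± 0.78, adjusted p = 0.000763). The control rat that was high in Irf7 was the same rat, replicate 2, that was high in Zbp1. Single rats also stood out at lower doses, namely replicate 4 at 100 mkd with 173 CPM of Irf7 and 3.56 CPM of Zbp1, and replicate 5 at 300 mkd with 289 CPM and 6.67 CPM. Neither dose was called for any of the 10 genes.

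**Figure D2:**
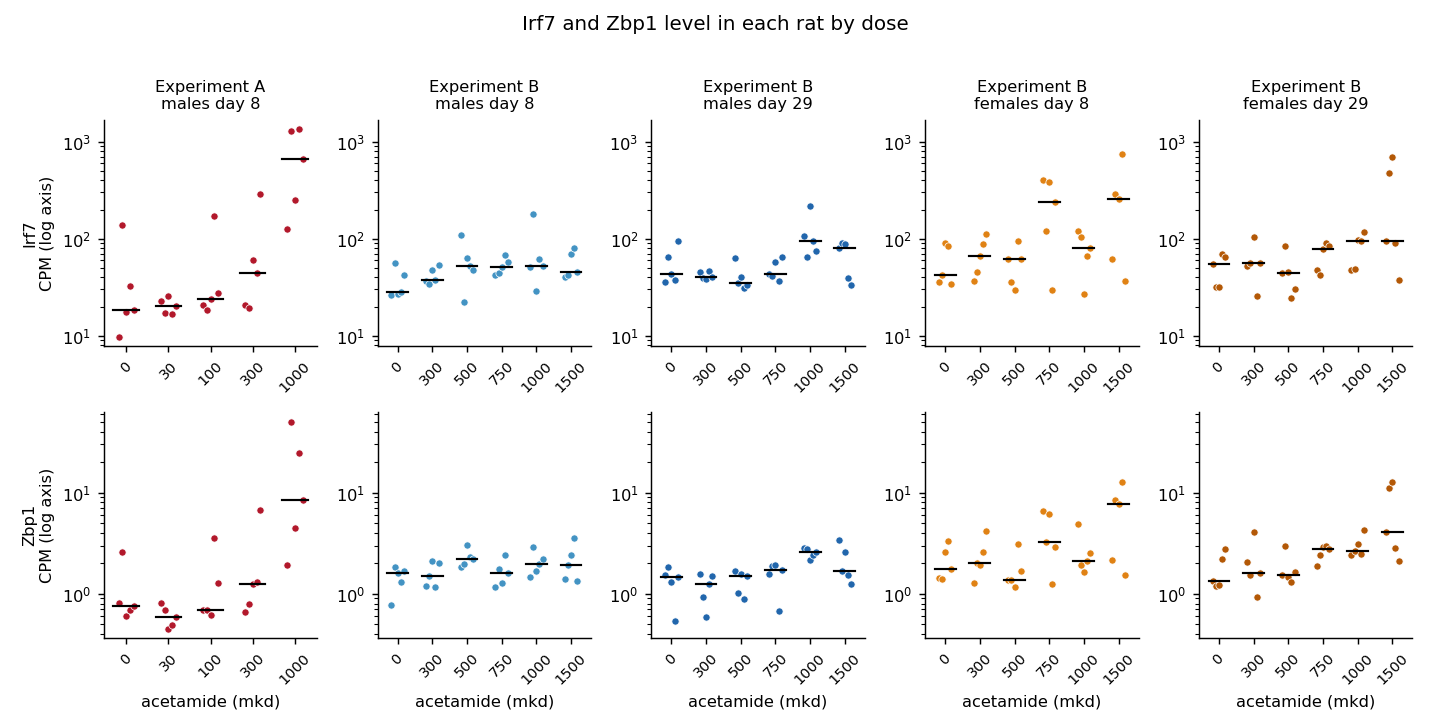
Irf7 (top row) and Zbp1 (bottom row) in CPM on log axes for every rat, by acetamide dose in mkd, in the 5 data sets. Points are rats (5 per dose) and bars are medians. In experiment A and in both female data sets a few rats reach levels far above the rest of their group, up to 1346 CPM of Irf7 and 50.5 CPM of Zbp1, while the males of experiment B do not exceed 219 CPM of Irf7.

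Among the RNA sensor genes in experiment A, Dhx58 was at 8.38 to 22.1 CPM in controls and at 19.3, 67.1, 22.6, 80.2 and 29.5 CPM at 1000 mkd, with 4 of 5 rats above every control (log2 fold change 1.74 ± 0.39, adjusted p = 0.00216). Ddx58 was at 44.8 to 79.1 CPM in controls and at 73.0, 196, 92.1, 243 and 110 CPM at 1000 mkd (1.16 ± 0.28, adjusted p = 0.00381). Ifih1 was at 15.5 to 28.3 CPM in controls and at 18.9, 73.4, 29.0, 73.5 and 33.5 CPM at 1000 mkd (1.11 ± 0.32, adjusted p = 0.0117). For each of the 3 genes the highest treated rats were replicates 2 and 4, and replicate 1 lay within the control range. Without replicates 2 and 4 of the 1000 mkd group the log2 fold changes of Dhx58, Ddx58 and Ifih1 were 0.88, 0.54 and 0.38, and none was called (adjusted p of 0.121, 0.179 and 0.453). Leaving out replicate 2 of this group alone ended the call of Ifih1 (adjusted p = 0.0532), as did leaving out replicate 4 of every group (adjusted p = 0.0593).

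On the DNA side, Tmem173 was at 1.02 to 1.86 CPM in the controls of experiment A and at 2.32, 2.78, 2.45, 2.67 and 4.23 CPM at 1000 mkd. Among the 10 genes, Tmem173 alone had all 5 treated rats of this group above every control (log2 fold change 1.00 ± 0.25, adjusted p = 0.00484). How common such a separation was over all genes was not computed. The call of Tmem173 was lost without replicate 5 of every group (adjusted p = 0.0554). Trex1 was at 8.40 to 11.6 CPM in controls and at 11.2, 32.3, 14.0, 29.8 and 14.9 CPM at 1000 mkd, with 4 of 5 rats above every control (1.02 ± 0.24, adjusted p = 0.00316). Without replicates 2 and 4 of the 1000 mkd group the log2 fold change of Trex1 was 0.43 (adjusted p = 0.177).

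The genes of the kinase TBK1, the factor IRF3 and the adapter MAVS were not called. The kinase gene Tbk1 was at 23.4 to 26.2 CPM in controls and at 23.0, 36.4, 27.6, 41.5 and 28.9 CPM at 1000 mkd (log2 fold change 0.34 ± 0.14, adjusted p = 0.0635). Irf3 was at 129 to 162 CPM in controls and at 139, 82.7, 131, 95.2 and 112 CPM at 1000 mkd, with a log2 fold change of -0.40 ± 0.14 (adjusted p = 0.0366) that stays under the 1.5-fold criterion. Mavs was at 27.0 to 36.3 CPM in controls and at 28.8, 24.5, 26.9, 21.9 and 31.2 CPM at 1000 mkd (-0.26 ± 0.12, adjusted p = 0.0915). The signs of Irf3 and Mavs depended on the scaling: with library totals alone, which moved the median log2 fold change of all genes to 0.58, they were 0.12 and 0.30. TMM factors in the 1000 mkd group ranged from 1.06 to 1.91.

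A linear trend over dose was called for all 10 genes in experiment A (adjusted p of at most 0.05 in edgeR), with Irf3 and Mavs falling and the other 8 rising, where 45.9% of all genes had such a trend. Per 1000 mkd, the slopes were 4.46 ± 0.60 for Irf7, 4.34 ± 0.51 for Zbp1, -0.45 ± 0.13 for Irf3 and -0.30 ± 0.10 for Mavs on the log2 scale. On this linear scale the 1000 mkd group lies far from the other doses and weighs most in the slope. At 30, 100 and 300 mkd, 0 of the 10 genes and 0 of all 11323 genes were called. The trends therefore largely repeat the comparison at 1000 mkd and do not show a graded response below it. The trends of Irf3, Mavs and Tbk1 were not called without replicate 2 or without replicate 4 of every group, and 4 trends remained called (Irf7, Zbp1, Dhx58 and Tmem173) without the 2 libraries that stood apart, beside 19.2% of all genes.

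In males of experiment B on day 8, none of the 10 genes was called at 1500 mkd by edgeR or by DESeq2, where these called 0.177% and 1.55% of all genes, and 2 (Trex1 and Zbp1) had an unadjusted p under 0.05. Irf7 was at 26.5 to 56.7 CPM in controls and at 40.1, 42.5, 70.3, 81.0 and 44.9 CPM at 1500 mkd, with overlapping groups (log2 fold change 0.63 ± 0.37, adjusted p = 0.501). Zbp1 was at 0.782 to 1.83 CPM in controls and at 1.40, 1.93, 2.43, 3.53 and 1.34 CPM at 1500 mkd (0.56 ± 0.27, adjusted p = 0.393). The other 8 genes had log2 fold changes between -0.23 (Ifih1) and 0.37 (Tmem173). The trend over dose was called for 0 genes by edgeR and by DESeq2, with 2 at an unadjusted p under 0.05, beside 2.52% and 4.59% of all genes.

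In males of experiment B on day 29, Ifih1 fell and was the only gene of the 10 called at 1500 mkd, where 4.91% of all genes were called. Ifih1 was at 37.1, 42.6, 37.2, 38.1 and 50.0 CPM in controls and at 19.7, 29.6, 29.0, 23.7 and 21.0 CPM at 1500 mkd, and the groups did not overlap (log2 fold change -0.74 ± 0.19, adjusted p = 0.0215). Under every control lay 4, 5, 5, 4 and 5 of 5 rats at 300, 500, 750, 1000 and 1500 mkd, and Ifih1 was called at 750 mkd as well (log2 fold change -0.81 ± 0.19, adjusted p = 0.0414). Log2 fold changes at 300, 500 and 1000 mkd were -0.27, -0.50 and -0.53, so that the level did not fall steadily with dose. All doses are set against the same 5 controls, those whose label assigns them to experiment A. The call at 1500 mkd was lost without control replicate 2 (adjusted p = 0.0514), without treated replicate 1 (adjusted p = 0.0577), without replicate 1, 4 or 5 of every group (adjusted p of 0.0616, 0.0538 and 0.0783), and with library totals alone (log2 fold change -0.57, adjusted p = 0.0623). Without the library of replicate 3 at 1500 mkd it remained the only gene called, beside 6.08% of all genes. The other RNA sensor Ddx58 was at 78.7 to 116 CPM in controls and at 65.8 to 89.0 CPM at 1500 mkd, with 4 of 5 rats under every control, and was not called (-0.49 ± 0.16, adjusted p = 0.0619). Irf7 was at 35.9 to 95.3 CPM in controls and at 33.3 to 90.6 CPM at 1500 mkd (0.27 ± 0.31, adjusted p = 0.600).

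Trends over dose in these males were called for 3 genes, Ifih1 falling (slope -0.46 ± 0.12 log2 per 1000 mkd, adjusted p = 0.00662) and Zbp1 and Trex1 rising (0.66 ± 0.19, adjusted p = 0.0160, and 0.22 ± 0.08, adjusted p = 0.0450), beside 24.5% of all genes. With DESeq2, with its size factors in edgeR and with no filter, 3 trends were called too, with Ddx58 in place of Trex1 (26.4% of all genes with DESeq2). Without replicate 1 of every group the trend was called for Ifih1 alone. At 1000 mkd, where no gene of the 10 was called, all 5 rats lay above every control for Zbp1 (2.18 to 2.85 against 0.538 to 1.84 CPM) and for Trex1 (13.0 to 17.2 against 9.27 to 12.3 CPM). The groups of both genes at 1500 mkd overlapped. The share of all genes whose 5 rats at 1000 mkd lay above every control was not computed.

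In females on day 8, 0 of the 10 genes were called at 1500 mkd by edgeR and 2, Irf7 and Zbp1, by DESeq2. Over all genes edgeR called 0.705% and DESeq2 2.94%, and 6 of the 10 had an unadjusted p under 0.05. Irf7 was at 35.6, 42.1, 89.5, 84.8 and 34.0 CPM in controls and at 62.5, 291, 256, 752 and 37.1 CPM at 1500 mkd, with 3 of 5 rats above every control (log2 fold change 2.29 ± 0.63, adjusted p = 0.0722, and 0.0176 with DESeq2). Zbp1 was at 1.43, 1.41, 2.59, 3.32 and 1.75 CPM in controls and at 2.15, 8.49, 7.66, 12.7 and 1.54 CPM at 1500 mkd, with the same 3 rats high (1.64 ± 0.48, adjusted p = 0.0831, and 0.0223 with DESeq2). The females at 1500 mkd thus held rats within the control range, replicates 1 and 5, beside rats far above it. Without treated replicate 1 or 5, edgeR called 2 and 3 genes of the 10, and the share of all genes is not given for these fits.

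At 750 mkd the females of day 8 had 406, 121, 384, 29.9 and 237 CPM of Irf7, with 4 of 5 rats above every control, and at 1000 mkd 119, 104, 26.8, 66.0 and 80.4 CPM, so that the level did not rise steadily with dose. Trends were called for 3 genes, Irf7 (slope 1.54 ± 0.40 log2 per 1000 mkd, adjusted p = 0.0240) and Zbp1 (1.09 ± 0.28, adjusted p = 0.0205) rising and Mavs falling (-0.26 ± 0.07, adjusted p = 0.0340), beside 5.44% of all genes. No trend was called without replicate 2, 3 or 4 of every group. Mavs was at 47.0 to 66.1 CPM in controls and at 46.1, 35.7, 37.3, 44.7 and 44.5 CPM at 1500 mkd, all 5 under every control, though it was not called there (-0.38 ± 0.13, adjusted p = 0.128).

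On day 29, 3 of the 10 genes were called in females at 1500 mkd, Irf7 and Zbp1 higher and Mavs lower, where 13.1% of all genes were called. Irf7 was at 54.5, 32.1, 31.8, 70.4 and 64.8 CPM in controls and at 95.7, 478, 702, 89.4 and 37.6 CPM at 1500 mkd, with 4 of 5 rats above every control (log2 fold change 2.47 ± 0.55, adjusted p = 0.00293). Zbp1 was at 1.32, 1.18, 1.22, 2.20 and 2.76 CPM in controls and at 4.11, 11.2, 12.7, 2.86 and 2.13 CPM at 1500 mkd, with 4 of 5 rats above every control (1.94 ± 0.41, adjusted p = 0.00204). In a fit of only the control and this dose, neither passed (adjusted p of 0.0621 and 0.0512), and Mavs was the only gene called. Tmem173 was at 1.12 to 2.79 CPM in controls and at 3.73, 4.48, 2.65, 2.73 and 2.00 CPM at 1500 mkd (0.75 ± 0.28, adjusted p = 0.0582). It was called by DESeq2 (adjusted p = 0.0394) and with the replicate number as a block (adjusted p = 0.0214), which brought the count to 4 in both, where DESeq2 called 14.3% of all genes.

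Mavs, the adapter shared by the RNA sensors, was at 44.0, 50.5, 42.3, 66.9 and 46.9 CPM in the control females of day 29 and at 36.1, 26.0, 33.5, 35.8 and 33.3 CPM at 1500 mkd, and the groups did not overlap. The log2 fold change was -0.60 ± 0.11 (adjusted p = 0.000526), a 1.52-fold fall that lies just past the fold criterion. The fold was under the criterion, with an adjusted p of at most 0.0061, without control replicate 4, without treated replicate 2, whose library stood apart, and without replicates 2 or 4 of every group. Irf7 and Zbp1 remained called without that library, beside 6.99% of all genes. With library totals alone it was -0.18 (adjusted p = 0.204), where the median log2 fold change of all genes was 0.42. The RNA sensor genes were not called in these females, with log2 fold changes of 0.03 for Ddx58, 0.00 for Ifih1 and 0.13 for Dhx58 (adjusted p of 0.923, 0.991 and 0.625).

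The trend over dose in females on day 29 was called for 4 genes, beside 27.3% of all genes. Irf7 rose with a slope of 1.61 ± 0.29 log2 per 1000 mkd (adjusted p = 0.000134), Zbp1 with 1.30 ± 0.22 (adjusted p = 7.84e-05) and Tmem173 with 0.54 ± 0.15 (adjusted p = 0.00942). Mavs fell with a slope of -0.41 ± 0.07 (adjusted p = 4.92e-05), with means of 50.1 ± 9.88 CPM in controls and 51.1 ± 5.37, 45.8 ± 3.33, 42.5 ± 4.11, 42.8 ± 2.06 and 33.0 ± 4.08 CPM at 300, 500, 750, 1000 and 1500 mkd (SD, n = 5). The mean at 300 mkd was thus not under that of the controls, and the largest step was that to 1500 mkd.

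**Figure D3:**
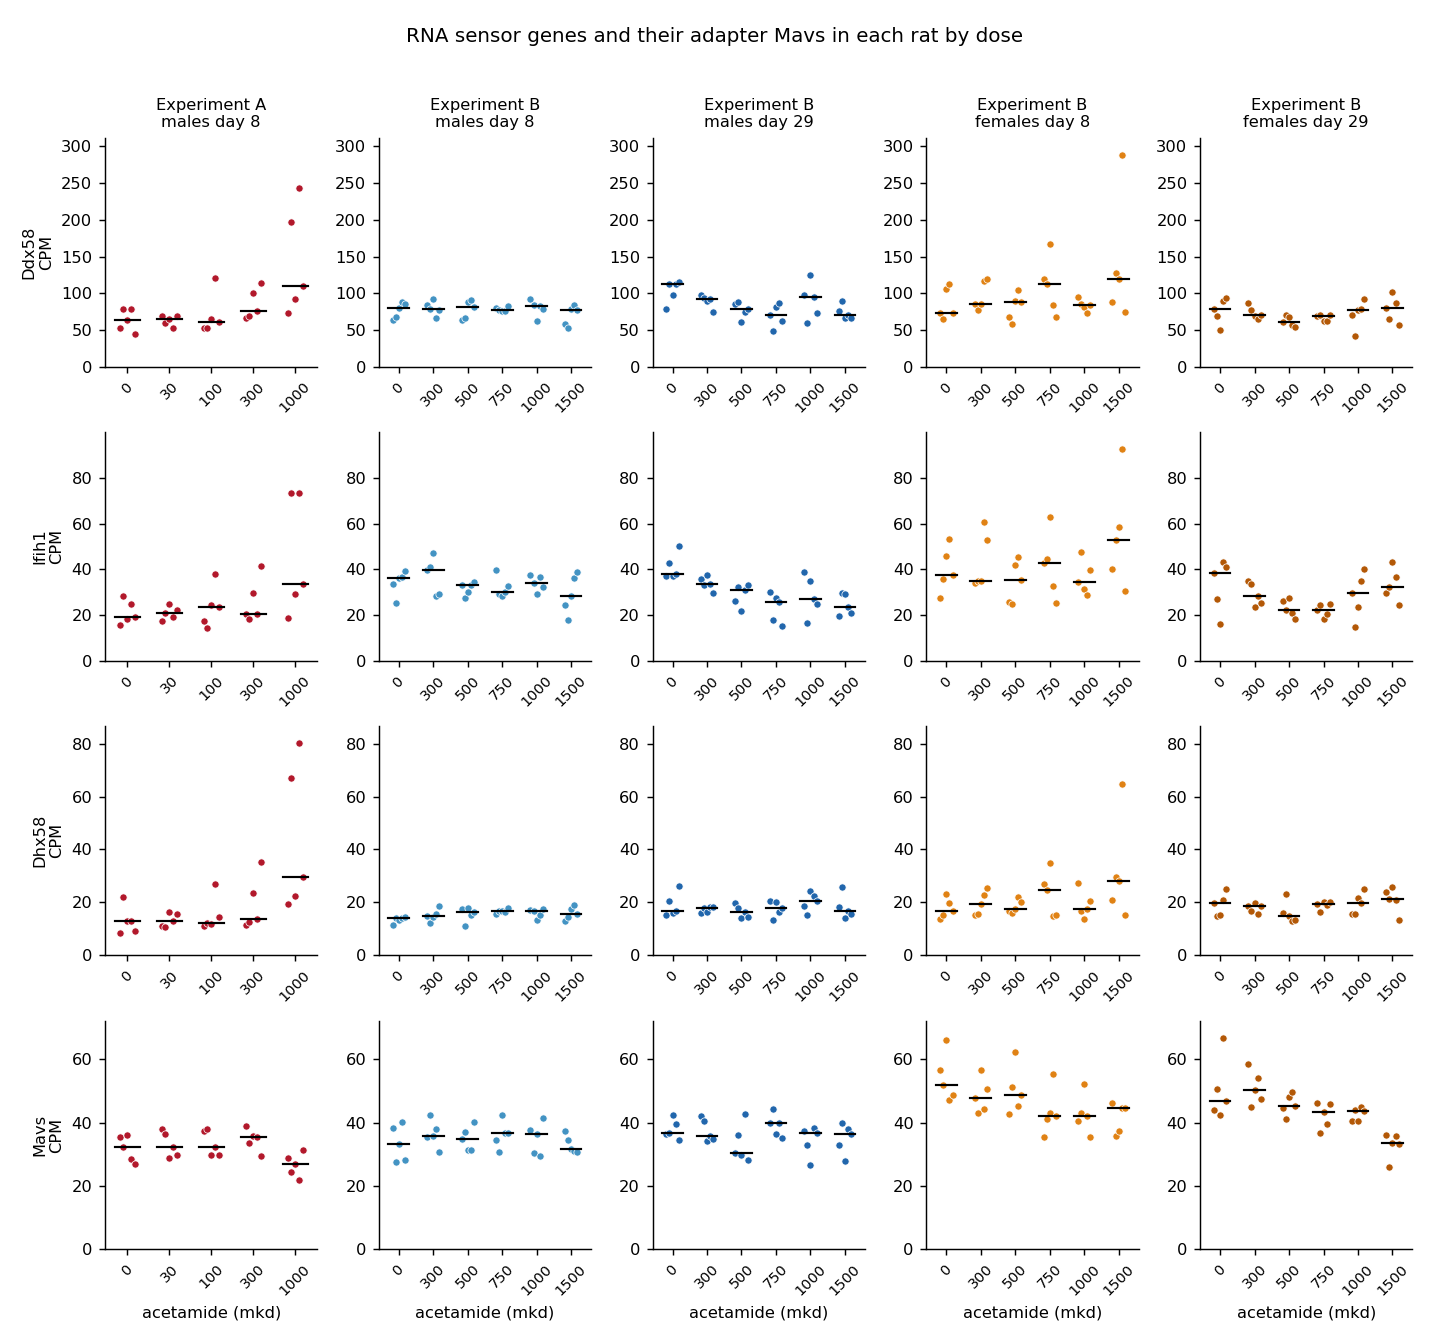
Ddx58, Ifih1, Dhx58 and Mavs in CPM (linear axes from 0) for every rat by acetamide dose in mkd, in the 5 data sets. Points are rats (5 per dose) and bars are medians. The 3 sensor genes are high in some rats at 1000 mkd in experiment A, Ifih1 declines in the males of day 29, and Mavs declines from 50.1 to 33.0 CPM (means) in the females of day 29.

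Below the highest dose, the 10 genes gave 1 call in 190 tests over 19 comparisons, Ifih1 in males at 750 mkd on day 29, where 0.356% of all tests were called. DESeq2 gave 5 calls in these tests, where it called 1.00% of all tests. The call was lost without replicate 2, 3 or 5 of every group. Per rat, all 5 rats were above every control for Zbp1 at 500 mkd and for Dhx58 at 750 mkd in the males of experiment B on day 8, without a call. These cases were singled out among the 190 tests, and the share of all genes with such a separation was not computed.

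Differences in response were tested as interactions at adjusted p of at most 0.05. Between males and females at 1500 mkd, 0 of the 10 genes differed on day 8 (0.00% of all genes) and 0 on day 29 (0.466%), by edgeR and by DESeq2 (0.00847% and 2.03% of all genes with DESeq2), and 5 and 5 had an unadjusted p under 0.05. The largest difference was that of Irf7 on day 29, 2.24 ± 0.70 log2 higher in females (adjusted p = 0.0930), and those of Zbp1 and Mavs were 1.33 ± 0.55 and -0.45 ± 0.17 (adjusted p of 0.192 and 0.142). Thus calls in females and not in males are not shown to differ between the sexes. Between day 8 and day 29, 0 of the 10 differed in males (0.00% of all genes, 0 at an unadjusted p under 0.05) or in females (0.0169%, 2 at an unadjusted p under 0.05), by either tool (0.0169% and 0.0339% of all genes with DESeq2). In females the response of Irf7 on day 29 exceeded that on day 8 by 0.19 ± 0.70 log2, and the log2 difference of Dhx58 was -0.70 ± 0.28 (adjusted p = 0.601).

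Between the experiments, the response of males to 1000 mkd on day 8 was larger in experiment A for 6 genes, Zbp1, Irf7, Dhx58, Ifih1, Ddx58 and Trex1, beside 7.48% of all genes with a difference in either direction. The difference was 3.55 ± 0.79 log2 for Zbp1 (adjusted p = 0.00790), 3.04 ± 0.91 for Irf7 (adjusted p = 0.0315), 1.497 ± 0.40 for Dhx58 (adjusted p = 0.0177), 1.11 ± 0.36 for Ifih1 (adjusted p = 0.0463), 1.10 ± 0.30 for Ddx58 (adjusted p = 0.0229) and 0.80 ± 0.26 for Trex1 (adjusted p = 0.0475). In experiment B this dose had 51.4, 182, 29.1, 61.7 and 52.4 CPM of Irf7 and 1.46, 2.92, 1.70, 1.97 and 2.21 CPM of Zbp1. No difference was called without the 2 libraries of experiment A that stood apart, for these genes or any other (0.00% of all genes). The count was 3 without replicate 2 of every group, 0 without replicate 4 and 1 without replicate 5.

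Control males and females of experiment B were also compared, at the same criteria as the doses. No gene of the 10 was called on day 8 (8.00% of all genes) or on day 29 (12.1%) by edgeR or by DESeq2 (8.53% and 12.6%), and 1 and 2 genes had an unadjusted p under 0.05. Mavs was higher in control females on day 8 by 0.51 ± 0.12 log2 (adjusted p = 0.000759), with means of 54.1 ± 7.62 CPM in females and 33.6 ± 5.75 CPM in males (SD, n = 5), each scaled within its own data set. In the joint fit this is 1.43-fold and under the fold criterion. On day 29 the difference was 0.28 ± 0.12 (adjusted p = 0.0750). Ddx58 was lower in control females on day 29 by a log2 difference of -0.55 ± 0.20 (adjusted p = 0.0404), also under 1.5-fold.

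Within dose groups, the genes varied together between rats. After each group's mean was taken off the log2 CPM, 35 of 45 pairs of genes were correlated over all rats at an adjusted p of at most 0.05 (permutation test within groups, 100000 resamples, two-sided), 23 positively and 12 negatively. The closest pair was that of the RNA sensors Ddx58 and Ifih1 (Pearson r = 0.864, Spearman rho = 0.826, adjusted permutation p = 2.65e-05 for r and 2.5e-05 for rho, the smallest these resamples can give), and r was 0.721 to 0.915 in the single data sets and 0.856 without the 2 rats farthest from the median. Zbp1 and Irf7 followed (r = 0.835, rho = 0.762, 0.418 to 0.920 in the data sets, 0.835 without 2 rats, with the same permutation p). Irf3 ran opposite to Ifih1 (r = -0.587, rho = -0.618, and r of -0.760 to -0.420 in the data sets) and to Tbk1 (r = -0.567, rho = -0.588, and -0.773 to -0.230 in the data sets), again with these permutation p. Mavs ran opposite to Irf7 (r = -0.378, rho = -0.397, and -0.496 to -0.188 in the data sets, adjusted permutation p = 7.11e-05 for r and 2.5e-05 for rho). Without the 2 rats farthest from the median these 3 were -0.559, -0.553 and -0.403. Rats of a group share dose and sampling day, and the sum of all reads links the genes of a library. Groups were not scaled to equal spread, so that groups with widely spread rats weigh more in r. Differences between rats in the size of the response to a dose therefore enter. Some pairs varied widely by data set, as Zbp1 and Ddx58 did (r of -0.261 to 0.839). The share of pairs of other genes that would pass this test was not computed. The count of 35 of 45 is therefore not shown to be particular to these genes.

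**Figure D4:**
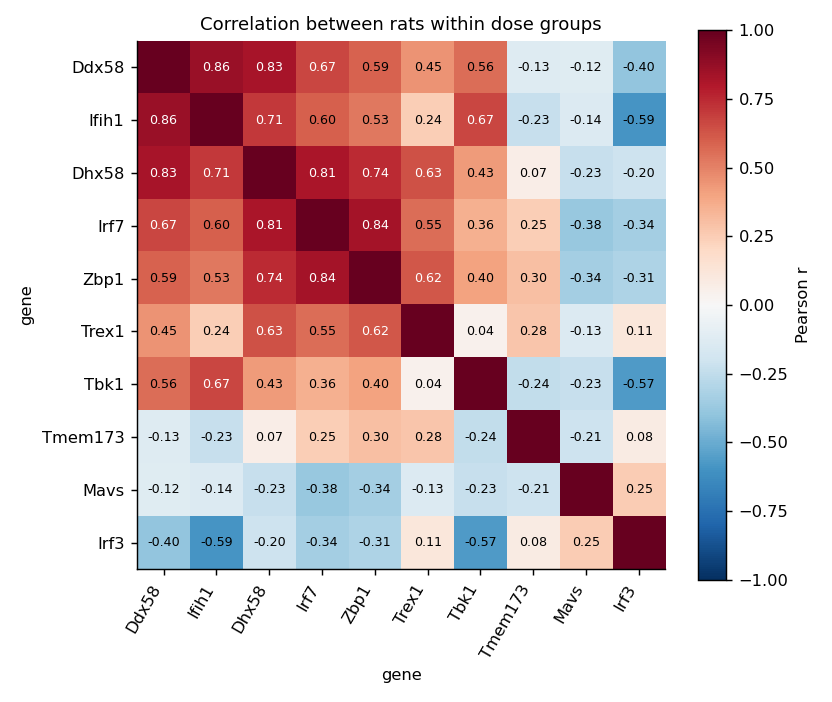
Pearson correlation between each pair of the 10 genes over all rats, on log2 CPM with the mean of each dose group taken off. Differences between group means do not enter, but groups with widely spread rats weigh more. Red is positive and blue is negative. Ddx58, Ifih1, Dhx58, Irf7, Zbp1 and Trex1 form a block of positive values, up to 0.864, while Irf3 and Mavs are negative against most of the block. The lowest value in the block, 0.243 for Trex1 and Ifih1, did not pass the test (adjusted permutation p = 0.0764). Tbk1 runs from 0.044 (with Trex1) to 0.666 (with Ifih1) against the genes of the block.

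Outside the 10 genes, those whose levels between rats ran closest to Irf7 by the same measure, among 11066 genes, were Oasl (r = 0.922), Uba7 (0.909) and Mx1 (0.904), and those closest to Zbp1 were Mx1 (0.894), Ly6e (0.881) and Oasl2 (0.860). For Dhx58 they were Oas1b (0.885), Mx2 (0.874) and Uba7 (0.864). For Ddx58 they were Znfx1 (0.871), Eif2ak2 (0.815) and Igtp (0.803), and for Ifih1 they were Ascc3 (0.867), Eif2ak2 (0.839) and Trim21 (0.813). Trex1 ran closest to Daxx (0.694), Ogfr (0.684) and Ly6e (0.652). Tmem173 had other neighbours, Pik3cd (0.777), Hmha1 (0.766) and Adcy4 (0.750), as did Mavs with Coq9 (0.564), Araf (0.559) and Suox (0.553). Oasl, Mx1, Oas1b and Mx2 are antiviral genes known to be induced by interferon. The values are descriptive, and the points share the libraries.

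Other genes of the pathway were taken from 8 lists of 156 genes, of which 122 were tested in each data set. The lists were drawn up with earlier results of these data known, so that their counts are descriptive. The interferon-induced targets (32 tested) stood out by their counts: 27 rose and 0 fell in experiment A at 1000 mkd, 0 and 0 changed in the males of experiment B on day 8 and on day 29, 5 rose in females on day 8 and 13 rose in females on day 29, both with 0 falling. The shares of all genes called in these 5 comparisons, in either direction, were 21.4%, 0.177%, 4.91%, 0.705% and 13.1%, and the counts of the lists below are to be read beside them. Without the libraries that stood apart the counts were 15 in experiment A and 12 in females on day 29, and 1 fell in males on day 29. Their median log2 fold changes were 2.38, 0.30, 0.25, 1.04 and 0.66 in this order, beside medians between -0.004 and 0.07 over all genes tested. Genes that were called higher in at least 3 data sets were Rsad2, Gbp4, Isg15, Cmpk2 and Lgals3bp of this list and Ifit1 of the RNA sensor list. The antiviral gene Rsad2 was at 2.31 to 5.63 CPM in controls and 25.8 to 960 CPM at 1000 mkd in experiment A (log2 fold change 6.82 ± 0.94, adjusted p = 9.3e-05), and its groups overlapped in females on day 8 (3.79 to 9.01 against 4.75 to 321 CPM). Isg15, an interferon-induced modifier of proteins, was at 2.46 to 28.8 CPM in controls and 33.1 to 852 CPM at 1000 mkd in experiment A. Ifit1, which binds foreign RNA, varied between rats of the same group from 0.0756 to 35.4 CPM in the controls of experiment A and from 0.0850 to 1005 CPM at 1000 mkd, and was also listed at 0 in control rats of other data sets. Its median in females on day 29 was 0.117 CPM in controls and 0.0867 CPM at 1500 mkd, where the highest rat was at 85.8 CPM, and in males on day 8 the control range of 0.0668 to 23.2 CPM held that at 1500 mkd (0.0934 to 0.175 CPM), so that the direction of its fold changes rested on few rats.

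The genes of interferons themselves were at or near 0. Ifnb1 had at most 4 reads in any rat and a read in 5 rats, Ifna1 and Ifna2 had 0 reads in all, Ifna4 had at most 2, Ifng at most 3 and Ifnk at most 12, and none passed the filter. This depth therefore cannot show a change of interferon transcripts. The receptor genes Ifnar1, Ifngr1, Ifngr2 and Il10rb were well covered, and of the 6 genes tested in their list Il10rb rose in experiment A and Ifngr1 in females on day 29. Without the libraries that stood apart 1 was called in experiment A and 0 in females on day 29.

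Of the further DNA sensors and their cofactors (18 tested), 1 rose in experiment A, Lrrfip1, and 2 in females on day 29, Polr3g (a subunit of RNA polymerase III) and Hmgb2 (a chromatin protein that also marks dividing cells). These were named after their values were seen. In each of the male data sets of experiment B and in females on day 8, 0 were called, and the median log2 fold changes of this list lay between -0.04 and 0.06 in the 5 data sets. Among 21 RNA sensors and regulators, 7 rose and 0 fell in experiment A, while in males on day 29 Ifit1 rose and Zc3hav1 and Eif2ak2, both antiviral RNA-binding proteins, fell (log2 fold changes of -0.73 and -0.61). Zc3hav1 and Eif2ak2 rose in experiment A, both with a log2 fold change of 0.91. In females on day 29, 3 of the list rose and Tomm70a fell. Endosomal receptors of nucleic acids sit mainly in immune cells, and their list also holds Unc93b1 and Myd88, which are not receptors. Of the 6 genes tested in it, 4 rose in experiment A and 3 in females on day 29, with Tlr7 (1.77 and 1.37 log2), Tlr8 and Unc93b1 in both. Of 20 kinases and adapters, 4 rose in experiment A and 2 in females on day 29, and of 9 transcription factors 4 rose in experiment A and 2 in females on day 29 (Irf5 and Irf8). Without the libraries that stood apart, 0 DNA sensors and 2 RNA sensors were called in experiment A, with 3 genes of the endosomal list, 2 kinases and adapters and 2 transcription factors, all higher. The females of day 29 gave calls, without replicate 2 of the 1500 mkd group, in 0 DNA sensors, 2 RNA sensors, 2 genes of the endosomal list, 1 kinase or adapter and 1 transcription factor, all higher. In males on day 29 without replicate 3 of this dose, 2 DNA sensors, 3 RNA sensors and 1 kinase or adapter were lower and 1 RNA sensor was higher. Of 10 nucleases and nucleotide enzymes, 2 rose in experiment A, and Enpp1 fell in males and in females on day 29 together with Dnase2b in the females. Without the libraries that stood apart, 0 of this list were called in experiment A and 1 was lower in each of the day 29 data sets.

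**Figure D5:**
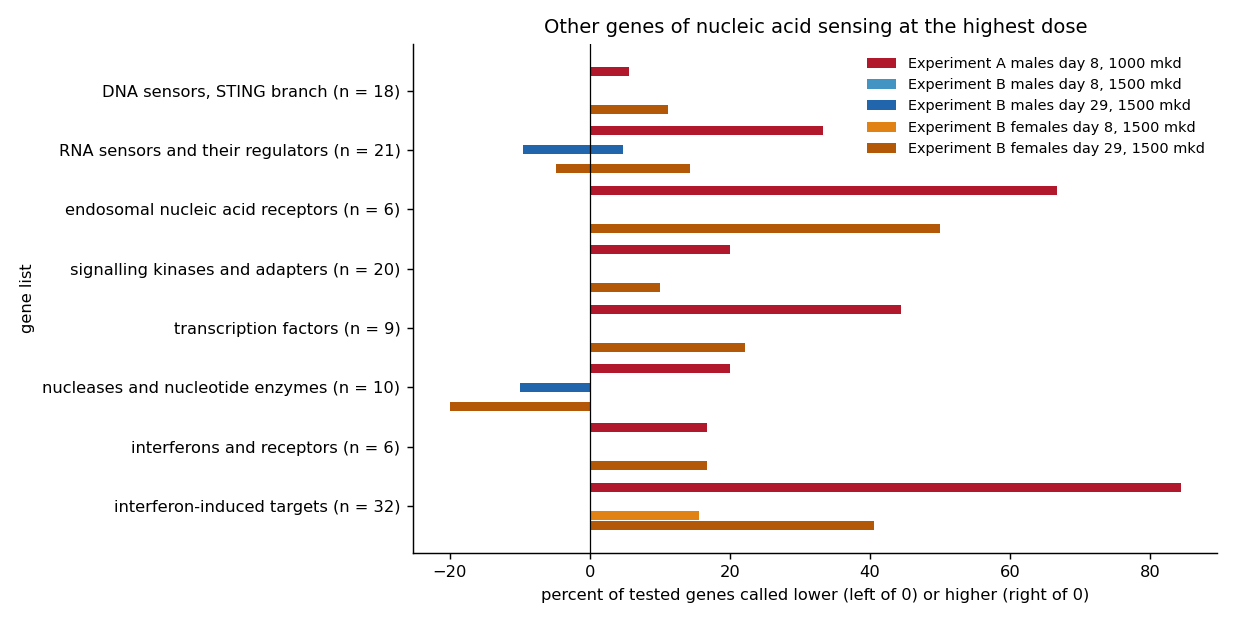
Percent of the tested genes of each list (number tested in brackets) called higher (right of 0) or lower (left of 0) at the highest dose of each data set, with colours for the data sets. The longest bar is that of the interferon-induced targets in experiment A, 27 of 32 genes, and no list has a called gene in the males of experiment B on day 8.

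Markers of other cell types moved in the same groups. In experiment A at 1000 mkd, 10 of the 10 tested markers of T and NK cells rose, and their sum over the 13 markers was 10.4 to 13.5 CPM in controls and 15.6 to 48.8 CPM at 1000 mkd, without overlap. Of 12 macrophage markers 7 rose, with sums of 631 to 1897 and 1580 to 2744 CPM, and of 6 endothelial markers 4 rose, with sums of 69.5 to 151 and 124 to 248 CPM. Of 9 hepatocyte markers 4 fell (Alb, Ttr, Fgb and Ass1), with sums of 247600 to 332500 and 75790 to 242200 CPM. The 13 markers of T and NK cells gave 10 tested in experiment A. In experiment B, 8 and 6 were tested in males (day 8 and day 29) and 9 and 9 in females. The filter keeps a gene with enough reads in as many rats as a dose group holds. Markers low in controls can thus enter through the treated rats, so that the count of 10 of 10 may in part be set by the filter. Among females on day 29, 3 of 9 tested markers of T and NK cells, 4 of 12 of macrophages and 2 of 6 of endothelial cells rose, and 3 of 9 of hepatocytes fell and 1 rose. Sums of macrophage markers were 1187 to 1441 CPM in these controls and 1346 to 2658 CPM at 1500 mkd. Of plasmacytoid dendritic cells, a source of interferon that expresses Irf7 at a high level, 4 markers were analysed, with sums of 2.21 to 3.58 and 3.00 to 7.72 CPM in experiment A, where Tcf4 and Runx2 of the 3 tested rose, and of 1.44 to 3.84 and 2.94 to 5.70 CPM in females on day 29, where Runx2 rose. Of B cells 0 of the markers tested were called in any data set, and of neutrophils 1 of 4 rose and 2 fell in experiment A and 2 of 4 rose in females on day 29. None of the markers analysed was at 0 in all rats of a data set. Without the libraries that stood apart, 5 markers of T and NK cells and 5 of macrophages rose in experiment A and 1 hepatocyte marker fell, with 1 marker each of plasmacytoid dendritic cells, neutrophils and endothelial cells higher. Without replicate 2 of the 1500 mkd group in females on day 29, 1 marker of T and NK cells, 2 of macrophages, 1 of endothelial cells and 1 of plasmacytoid dendritic cells rose, none of neutrophils was called, and 1 hepatocyte marker rose and 1 fell. In the males on day 8 and on day 29 and in the females on day 8, 0 markers of these cell types were called. The part of the cell types in the levels of the 10 genes was not tested.

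Markers of cell division (8 genes) all rose in experiment A at 1000 mkd, in males on day 29 and in females on day 29. Their sums in males on day 29 were 12.6 to 35.1 CPM in controls (median 22.5) and 14.8 to 1010 CPM at 1500 mkd (median 53.1). At this dose Irf7 and Zbp1 were not called and Ifih1 was lower. Without the libraries that stood apart, 2, 3 and 8 of these markers rose in the 3 data sets in this order. Their part in the levels of the 10 genes was not tested.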

How the data were processed

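RNA-Seq libraries (TruSeq stranded mRNA) were made from the left liver lobe of each rat. The authors trimmed the reads (Trimmomatic), aligned them to the rat genome Rn6 (Bowtie2), counted them on genes (HTSeq) and deposited raw counts, with no normalization. Versions and the strand setting are not given in the sources used here, so reads of overlapping genes may not be separated. Summary lines of HTSeq in the tables of experiment B (35.5 to 67.1% of counts) were left out, and 0 sample columns were unused. Groups came from the labels, and 0 pairs of columns were identical.

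Tests on these counts used edgeR 4.0.16 under R 4.3.3, with its quasi-likelihood F statistic, TMM and filterByExpr. Each data set was fitted with every dose group, and p was adjusted over all genes by Benjamini-Hochberg. Dose comparisons were called at a fold of at least 1.5 and an adjusted p of at most 0.05, and trends and interactions at that adjusted p alone. CPM on the log2 scale used a prior count of 2. The scripts were tested on simulated data. Alternatives were DESeq2 1.42.0, its size factors, library totals, no filter, a minimum of 10 counts per rat, a replicate block, dose rank, only the control and tested dose, and leaving out rats. Library totals, and leaving out libraries with a median correlation under 0.95, were added after seeing the data.

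The 10 genes and the lists were chosen with earlier results of these data known. All 10 are named, with the list genes called in the same direction in at least 3 data sets and, for each of the 10 called anywhere, the 3 most correlated genes. Other list genes and markers were named after their values were seen. Each rat is a separate animal, and replicate numbers do not pair rats: deviations of same-numbered rats had median correlations of -0.023 to 0.032. Not every result of the list genes is reported here.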

Additional observations from a re-analysis of the deposited data

Results flagged for a closer look

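Of 100 groups of 5 rats (10 genes in the control and highest dose groups), 7 held a rat far from the others by Dixon's criterion, and chance gives about 1 in 20. In the controls of experiment A, a rat stood apart in Zbp1 (2.58 CPM) and in Irf7 (137 CPM), replicate 2 in both. At 1000 mkd in experiment A, the highest Tmem173 was 4.23 CPM. In females on day 8 at 1500 mkd, replicate 4 was apart in Ddx58 (288 CPM) and in Dhx58 (65.0 CPM), and the lowest Tmem173 was 1.48 CPM. In females on day 29 at 1500 mkd, the lowest Mavs was 26.0 CPM.

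The response at 1000 mkd on day 8 differed between experiments A and B by an interaction test (edgeR) for Zbp1 (3.55 log2), Irf7 (3.04), Dhx58 (1.497), Ifih1 (1.11), Ddx58 (1.10) and Trex1 (0.80), each larger in experiment A. Without the 2 libraries that stood apart in experiment A, 0 were called. Replicate 2 of the 1000 mkd group had a TMM factor of 1.91. Its part in the differences was not tested beyond leaving it out.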

How the results depend on the processing

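The log2 fold changes of the 10 genes at the highest doses gave 1087 values under the alternatives that stayed on the same side of the criteria, 21 that lost a call and 21 that gained one. None of the called changes turned sign under any alternative run, while values that were not called could, as those of Irf3 and Mavs in experiment A did with library totals. In experiment A, 3 genes were called at 1000 mkd and 4 trends in place of 10 without the libraries of low correlation, and 0 responses differed from experiment B. In males on day 29, 0 genes were called with library totals and 5 trends with dose rank. In females on day 8, DESeq2 called 2 and library totals 4. For females on day 29, 1 was called when the fit held no other dose than 1500 mkd and the control. At doses below the highest, DESeq2 gave 5 calls, the replicate block 2 and the set without the libraries of low correlation 3. Numbers of rats do not pair them, and the replicate block changed no other count of the 10 genes by over 1.5 times (7 called in experiment A, and 4 in place of 3 in females on day 29). Over all genes it called 30 higher and 3 lower in males on day 8 in place of 16 and 4, and 3 and 0 in females on day 8 in place of 60 and 21. It left Trex1 out of the trends in males on day 29. With at least 10 counts in every rat, Zbp1 was not tested in experiment A. The causes were not tested. Library totals moved the median log2 fold change of all genes by over 0.1 in each data set, and turned the split of all calls from 1580 higher and 844 lower to 5140 and 150 in experiment A, from 16 and 4 to 35 and 2 in males on day 8, from 356 and 198 to 661 and 51 in males on day 29, from 60 and 21 to 343 and 14 in females on day 8, and from 1093 and 405 to 3353 and 74 in females on day 29. In males on day 29 the split was 381 and 332 with DESeq2, 276 and 271 with no filter and 127 and 560 without replicate 3 at 1500 mkd.

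Leaving out replicates or rats gave 6 to 7 calls in experiment A, 0 in males on day 8, 0 to 2 in males on day 29, 0 to 3 in females on day 8 and 2 to 4 in females on day 29. Trends numbered 7 to 10, 0, 1 to 4, 0 to 3 and 3 to 4 in the same order, and calls below the highest dose 0 to 1. Differences between the experiments numbered 0 to 6, and those between control males and females 0 to 1 on day 8 and 0 to 1 on day 29. Differences between sexes and between days stayed at 0. Shares of all genes are not given for these leave-outs, for dose rank, or for the fit of the control and tested dose alone. The same holds below the highest dose for the replicate block and for the set without libraries of low correlation. These counts therefore show only how far the calls moved.

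With 5 rats per group and single rats that stood far above their group in Irf7 and Zbp1, smaller changes of these genes could not be resolved. Depth limits Tmem173, Zbp1 and the interferon genes.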
